A study of Mus musculus with 4 samples.

Results

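Collagen genes were followed in mouse kidney ureteric buds that had been exposed to angiotensin II (AngII). The members are the genes whose RefSeq symbol is Col, a number, a and a number, reached through the accession of an array probe. Probes named 39 such genes among 17305 named genes, with 67 probes, and 32 of the 39 were bright enough to be tested among 14995 features. All 32 were well above background in the AngII and in the media RNA on all 4 arrays, so none entered through 1 RNA alone. Col4a3, Col4a5, Col6a6, Col10a1, Col17a1, Col19a1 and Col28a1 stood clearly above background on none of the 4 arrays, in AngII or in media, and stayed untested. Col6a3, Col6a5, Col12a1, Col20a1 and Col22a1 had no probe named through an accession and were not analysed here.

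Ureteric buds are epithelial outgrowths of the nephric duct whose branches become the collecting duct system. In this study intact buds lay in a matrix gel in DMEM/F12 supplemented by HGF (100 ng/ml), GDNF (100 ng/ml) and 10% fetal bovine serum in both groups. The treated group received AngII, a pressor peptide and the main product of the renin cascade, at 1e-05 M, and the control received media alone, each for 6 h. RNA of 2 numbered AngII and media pairs was hybridised to 4 two-colour Agilent arrays on 1 slide, with AngII in the red dye Cy5 on 2 arrays and in the green dye Cy3 on the other 2. The mouse strain, the embryonic age and how many buds were pooled are not given in these sources. Each value below is a log2 ratio of AngII over media, so that 0 is no difference and 1 is a doubling.

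Collagens are extracellular proteins whose chains wind into a triple helix of repeated glycine triplets. Fibrillar collagens assemble into banded fibrils, type IV collagens form the sheet-like network of basement membranes, FACIT collagens sit on fibril surfaces, and transmembrane collagens are held in the cell membrane. The ureteric bud rests on a basement membrane of type IV collagen and laminin, and fibrillar collagens are made mainly by the stroma around it.

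Each channel of each array had 19028 to 21922 of 41174 probes well above background. The numbered replicates differed by no more than the array noise. The replicate contrast had an SD of 0.0376 (log2) across features, and the contrast of array noise alone had 0.0370. In limma, 0 of 14995 features differed between them at an adjusted p under 0.05 and 767 at the unadjusted threshold of 0.05, against 750 by chance. They were therefore counted as 1 independent pair of RNA samples, and every limma p-value below reflects hybridisation spread only. The dye mattered more than the replicate number. For the 32 collagen genes the ratios of replicates 1 and 2 correlated at r = 0.97, and those of the dye orientations at r = 0.68, against 0.98 and 0.69 over all features, descriptions in which the genes share the same RNAs and spots. Of 14 ureteric epithelial markers 13 were measured, and Ret was not well above background. Markers of other kidney cells were measured too, 13 of 14 stromal, 9 of 10 endothelial and 7 of 8 nephron progenitor genes.

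Collagen transcripts were more often higher than lower under AngII. In limma 77.2% of all features passed an adjusted p of 0.05. Of the 32 collagen genes 19 rose (59.4%) and 6 fell (18.8%), where 39.1% of all features rose and 38.1% fell. The median log2 ratio of the collagen genes was 0.14, against 0.00 over all features. Col5a3 and Col6a4 were at least 1.5-fold higher (5.5% of all features) and Col11a2 and Col2a1 at least 1.5-fold lower (5.4%). Past 2-fold lay Col5a3 alone, though not with AngII in Cy5 (0.97), joined by Col6a4 without background correction (1.04) and in the authors' deposited table (1.03). Sizes depended on the background correction. With the scanner's processed signals in place of the corrected medians 6 were at least 1.5-fold higher, where 12.1% of all features were, and Col5a3 (2.06), Col6a4 (1.43), Col11a2 (-1.67) and Col9a3 (-1.35) lay past 2-fold. Of the 25 called ratios 12 were over 1.5 times larger with those signals, and Col1a2 (-0.029) and Col3a1 (0.073) were over 1.5 times smaller. Besides the 4 past 2-fold, the larger ones were Col27a1 (0.82), Col24a1 (0.76), Col6a2 (0.61), Col13a1 (0.41), Col25a1 (0.36), Col9a2 (0.34), Col8a2 (0.28) and Col5a2 (-0.26). Of the 19 that rose 16 had a positive ratio on all 4 arrays (30.3% of all features passed in this way), and of the 6 that fell 4 had a negative ratio on all 4 (27.4%). With the replicate block fitted to the 4 separate arrays, so that the gap between the dyes counts as error, 10 collagen genes rose (31.2%) and 4 fell (12.5%), where 16.3% and 14.6% of all features did.

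**Figure D1:**
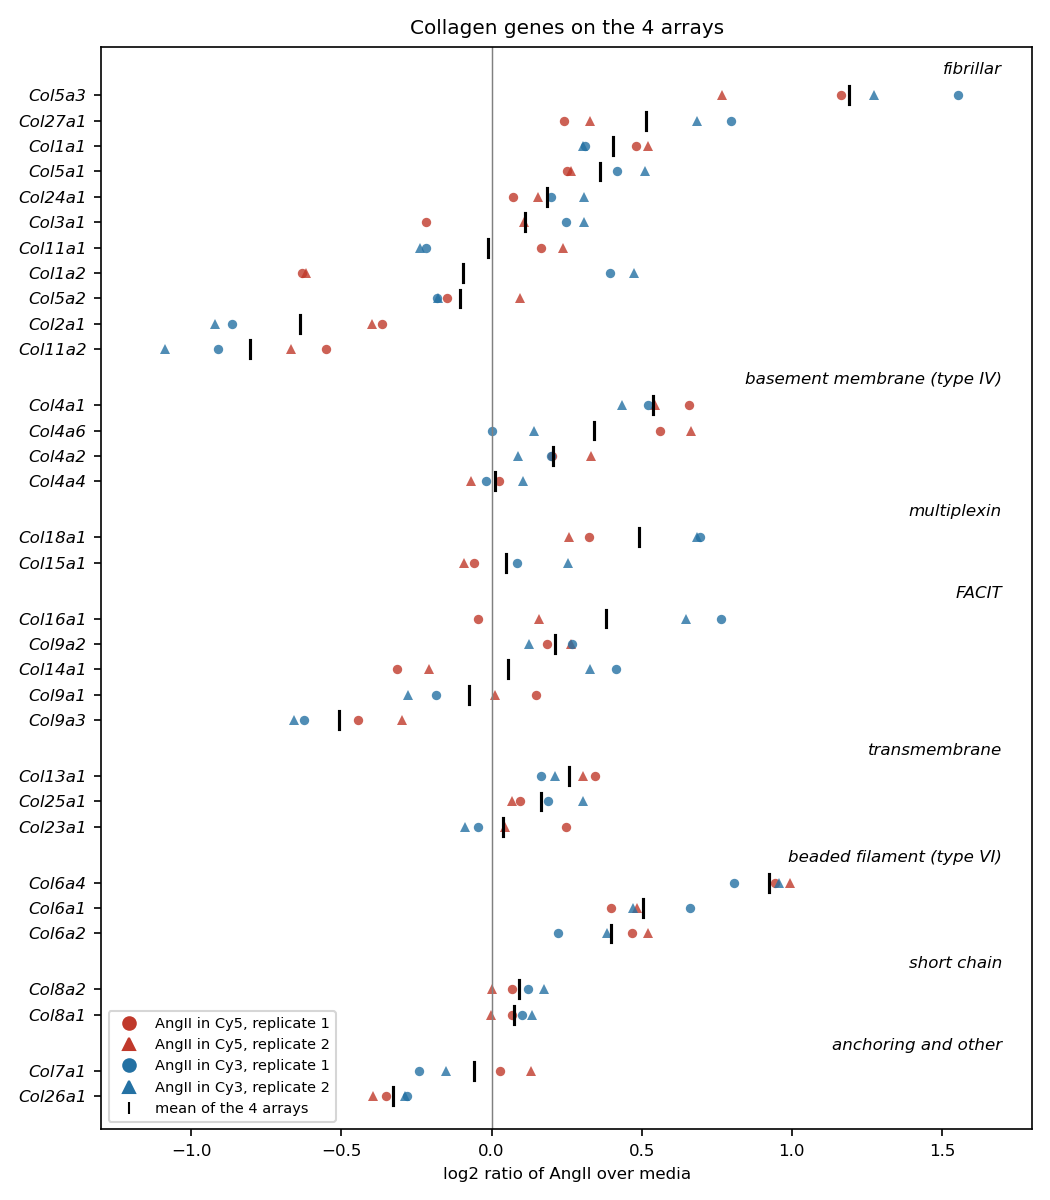
Log2 ratio of AngII over media (horizontal axis) of each tested collagen gene, by class, on the 4 arrays. Red marks are arrays with AngII in Cy5, blue marks with AngII in Cy3, circles replicate 1 and triangles replicate 2, and the black bar is their mean. Col5a3 and Col6a4 lie farthest to the right, at means of 1.19 and 0.93, and Col11a2 and Col2a1 farthest to the left, at -0.80 and -0.64.

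**Figure D2:**
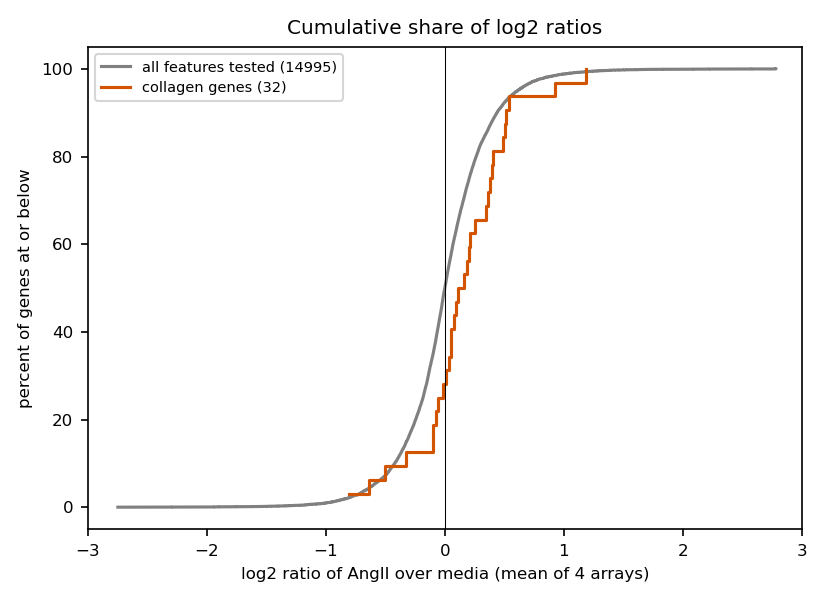
Cumulative percent of features (vertical axis) with a log2 ratio of AngII over media at or below the value on the horizontal axis, for the 32 collagen genes (orange) and all 14995 features (grey). The orange line runs to the right of the grey line through the middle of the range, with medians of 0.14 and 0.00.

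The fibrillar class had the largest increase and the largest decreases. Of its 11 genes, all tested, 6 rose and 4 fell, with a median of 0.11, or 4 and 2 with the replicate block. The shares that rose and fell, 54.5% and 36.4%, stood beside 39.1% and 38.1% of all features. With the block they were 36.4% and 18.2%, beside 16.3% and 14.6%. Col5a3 encodes a minor chain of type V collagen, which joins type I in fibrils. Its ratios were 1.17 and 0.77 with AngII in Cy5 and 1.55 and 1.27 with AngII in Cy3, a mean of 1.19 or 2.28-fold (adjusted p = 2.73e-16 in limma). All 4 arrays were well above 0, and the lowest belonged to replicate 2. A further Col5a3 probe was not well above background. Col5a1, the chain found in most type V molecules and a regulator of fibril diameter, rose less, by 0.36 (0.25 to 0.51 over the 4 arrays), and its dimmer tested probe had 0.07. Col5a2, their partner chain, fell by 0.10, with -0.15, -0.18 and -0.18 on 3 arrays and 0.09 on the remaining one, and lost its call with the replicate block (adjusted p = 0.342).

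The chains of type I collagen, the main fibril protein of connective tissue, did not share a direction in both dyes. Col1a1, read by 10 spots of 1 probe, had 0.48 and 0.52 with AngII in Cy5 and 0.31 and 0.31 with AngII in Cy3, a mean of 0.40 or 1.32-fold. Its ratio was positive on every array. Of its other tested probes, the brighter had 0.07 and the dimmer 0.08. Col1a2, read by 1 spot, had -0.63 and -0.62 with AngII in Cy5 and 0.40 and 0.47 with AngII in Cy3. The dye gap of 1.06 is the widest among the collagen genes, and its sign turned with the dye. The mean of -0.10 passed limma (adjusted p = 0.0145) but not with the replicate block (adjusted p = 0.801). Col3a1, which mixes with type I in soft tissue, had a mean of 0.11 that passed limma (adjusted p = 0.0134) and lost it with the replicate block (adjusted p = 0.451). On 1 array it was negative (-0.22) and on the others it ran from 0.11 to 0.31.

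Of the fibrillar genes, Col2a1 and Col11a2 fell the most. Col2a1, the chain of the main cartilage fibril, had -0.37 and -0.40 with AngII in Cy5 and -0.86 and -0.92 with AngII in Cy3, a mean of -0.64. A further Col2a1 probe with 10 spots had -0.52, again negative on all 4 arrays. Col11a2, a chain of type XI collagen, which copolymerises with type II, had -0.55 and -0.67, then -0.91 and -1.09, a mean of -0.80, so that media exceeded AngII 1.75-fold (adjusted p = 2.21e-15 in limma). Both genes were lower on every array, and by more with AngII in Cy3. Its partner chain Col11a1 had 0.16 and 0.24 with AngII in Cy5 and -0.22 and -0.24 with AngII in Cy3, a mean of -0.01 that did not pass. Col27a1 and Col24a1, fibrillar chains known from cartilage and bone, rose by 0.51 (0.24 to 0.80) and 0.18 (0.07 to 0.31). Col24a1 did not pass with the block (adjusted p = 0.104), and a dimmer tested probe of Col27a1 had -0.08.

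Stromal markers, from cells that make fibrillar collagen, were measured beside the collagens. Of 13 tested 6 rose and 3 fell, around a median of 0.01, while 4 did not pass, and with the replicate block 4 rose and 1 fell. These shares, 46.2% and 23.1%, stood beside 39.1% and 38.1% of all features, and 30.8% and 7.69% with the block beside 16.3% and 14.6%. The summed normalised intensity of the stromal markers ran from 63936 to 75026 in the AngII channels and from 63729 to 75263 in the media channels. Such sums add linear intensities, so the brightest genes weigh most, here Tagln at a mean log2 intensity of 15.4. Acta2 rose by 1.69 and Cspg4 by 1.07, with other probes between 0.65 and 1.03. Thy1, Tcf21, Postn and Pdgfrb rose by 0.85, 0.40, 0.40 and 0.23, but another tested Thy1 probe had 0.07. Tagln, a smooth muscle gene like Acta2 and the brightest of the list, fell by 0.36 on the log2 scale at its brightest probe. That probe was negative on all 4 arrays (block adjusted p = 0.0213), but another tested Tagln probe had 0.18, opposite in sign. Foxd1 fell by 0.16 and Dlk1 by 0.086, and Foxd1, Dlk1, Tcf21 and Pdgfrb did not pass with the block (adjusted p = 0.471, 0.787, 0.0984 and 0.314). The part of stromal cells in the fibrillar ratios was not tested. In such bulk RNA a change in the number of cells of a type and in RNA per cell cannot be told apart.

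Promoter windows of the fibrillar genes at the extremes are shown to give the sequence beside the gene with the largest increase and that with the largest decrease. RefSeq promoter windows (GRCm38.p6) run from 250 bases before to 50 bases after the annotated start, 5′ to 3′, and were found for 26 of the 32 tested genes. Col5a3 lies at chr9:20815018-20815317, minus strand, and Col11a2 at chr17:34038888-34039187, plus strand. Capitals mark the motifs searched on both strands, namely the TATA box spelled TATAAA, the CCAAT box, the GC box spelled GGGCGG and the AP-1 site spelled TGANTCA, none of which shared letters with another in the windows printed.
Col5a3: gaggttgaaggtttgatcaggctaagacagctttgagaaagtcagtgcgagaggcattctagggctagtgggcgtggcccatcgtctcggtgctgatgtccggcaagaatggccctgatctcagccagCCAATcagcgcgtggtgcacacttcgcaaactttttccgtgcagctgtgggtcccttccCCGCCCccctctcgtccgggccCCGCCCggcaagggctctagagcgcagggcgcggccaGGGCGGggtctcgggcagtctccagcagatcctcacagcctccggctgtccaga
Col11a2: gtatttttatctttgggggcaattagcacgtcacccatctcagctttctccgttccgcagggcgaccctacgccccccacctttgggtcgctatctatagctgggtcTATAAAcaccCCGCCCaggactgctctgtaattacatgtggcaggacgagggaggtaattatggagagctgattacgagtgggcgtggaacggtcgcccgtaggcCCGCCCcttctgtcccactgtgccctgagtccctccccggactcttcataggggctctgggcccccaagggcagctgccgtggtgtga
The Col5a3 window held 3 GC boxes and 1 CCAAT box, and the Col11a2 window 2 GC boxes and 1 TATAAA. The collagen windows counted next belong to 35 collagen genes, of which 26 were tested, and some genes had more than 1. A GC box was present in 23 of 38 collagen windows (60.5%) and in 35.7% of all 32851 windows. CCAAT was in 34.2% of collagen windows and 37.4% of all, TATAAA in 13.2% and 13.6%, and TGANTCA in 2.63% and 7.81%. These matches describe letters only.

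Type IV collagens, the chains of the basement membrane network, rose in 3 of 4 tested genes at their brightest probe and fell in 0. Their median was 0.27, and Col4a1 alone passed with the replicate block. The shares that rose and fell, 75% and 0%, stood beside 39.1% and 38.1% of all features. With the block 25% rose, where 16.3% of all features did. Col4a1, which with Col4a2 makes the trimer of nearly every basement membrane, had 0.66 and 0.54 with AngII in Cy5 and 0.52 and 0.43 with AngII in Cy3, a mean of 0.54 or 1.45-fold. Another Col4a1 probe, with a mean log2 intensity of 10.6 against 11.1, had 0.13. Col4a2 had 0.20 and 0.33, then 0.20 and 0.09, a mean of 0.20. Its other probe was negative on all 4 arrays, from -0.28 to -0.18, with a mean of -0.23. Probes of Col4a1 thus differed in size and those of Col4a2 in sign. Col4a2 passed limma at its brightest probe but not with the replicate block (adjusted p = 0.0913).

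Col4a1 and Col4a2 stand head to head, and their promoter windows overlap by 78 bases of the same DNA, which is why the pair is printed. Col4a1 lies at chr8:11312777-11313076, minus strand, and Col4a2 at chr8:11312555-11312854, plus strand, with the same motifs in capitals.
Col4a1: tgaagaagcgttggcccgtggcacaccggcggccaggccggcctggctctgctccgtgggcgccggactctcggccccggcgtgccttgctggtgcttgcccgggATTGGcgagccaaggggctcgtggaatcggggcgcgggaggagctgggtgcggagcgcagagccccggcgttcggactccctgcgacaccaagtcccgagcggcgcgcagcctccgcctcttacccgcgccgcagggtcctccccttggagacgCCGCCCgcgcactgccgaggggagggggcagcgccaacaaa
Col4a2: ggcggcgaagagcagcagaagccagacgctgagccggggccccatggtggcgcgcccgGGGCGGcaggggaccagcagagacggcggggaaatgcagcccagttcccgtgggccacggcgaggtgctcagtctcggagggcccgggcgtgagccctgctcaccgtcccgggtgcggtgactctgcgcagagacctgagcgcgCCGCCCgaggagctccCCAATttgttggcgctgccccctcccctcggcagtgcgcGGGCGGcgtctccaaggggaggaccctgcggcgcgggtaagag
The Col4a1 window held 1 CCAAT and 1 GC box and the Col4a2 window 1 CCAAT and 3 GC boxes, with GC contents of 74.0% and 73.7%.

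The remaining type IV chains are those of specialised basement membranes. Col4a6, whose chain assembles with that of Col4a5, had 0.56 and 0.67 with AngII in Cy5 and 0.00 and 0.14 with AngII in Cy3, a mean of 0.34. With the replicate block it did not pass (adjusted p = 0.129), and another tested probe had -0.21. Col4a4, a chain of the mature glomerular basement membrane, had 0.01 (-0.07 to 0.11) and did not pass. Their head-to-head partners Col4a5 and Col4a3 were not tested.

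**Figure D3:**
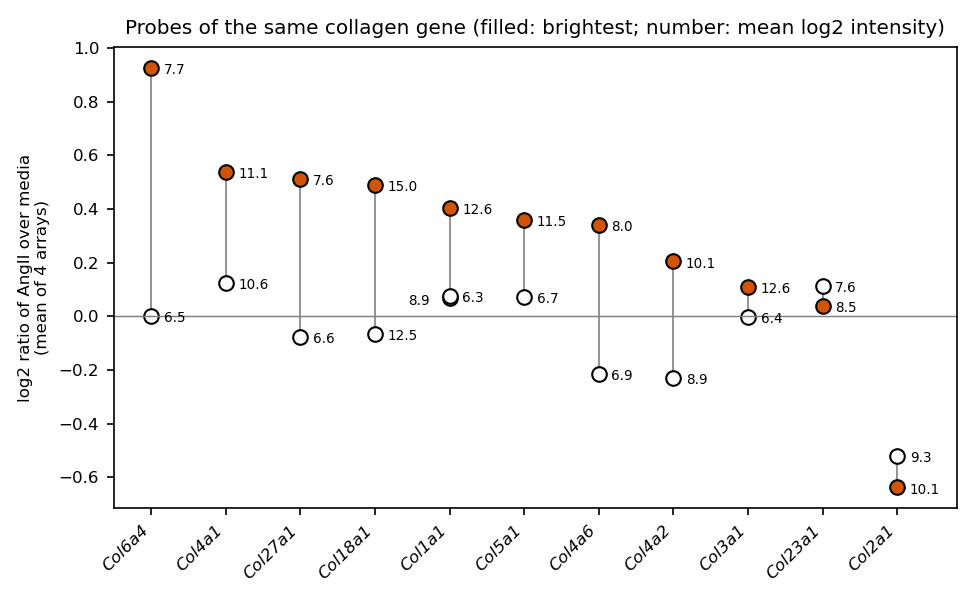
Mean log2 ratio of AngII over media (vertical axis) of each probe of the 11 collagen genes with more than 1 tested probe. Filled circles are the brightest probe, used for the gene, open circles the others, and the number beside each is its mean log2 intensity. Probes differ by 0.92 for Col6a4 and lie on both sides of 0 for Col27a1, Col18a1, Col4a6, Col4a2 and Col3a1.

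Of the 11 collagen genes with more than 1 tested probe, 5 had probes of opposite sign, and in 2 (Col6a4 and Col27a1) the probes differed over 1.5-fold. The brightest probe had the largest ratio in size in 9 of the 11. It also had the highest ratio, sign included, in 9 of the 11, so its choice favoured higher values. When probes were averaged per gene instead, the median of the collagen genes was 0.08.

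Type VI collagen, which forms beaded filaments near basement membranes, was higher in all 3 tested chains on every array, with a median of 0.50. Of all features 30.3% passed limma with a positive ratio on all 4 arrays. Col6a4, a chain related to that of Col6a3, had 0.94, 0.99, 0.81 and 0.96, a mean of 0.93 or 1.90-fold (adjusted p = 6.60e-17 in limma). Its dimmer tested probe had 0.00 (-0.25 to 0.15). That probe had a mean log2 intensity of 6.54 and was well above background in both RNAs on all 4 arrays. Col6a1 had 0.40 and 0.48 with AngII in Cy5 and 0.66 and 0.47 with AngII in Cy3, a mean of 0.50. Col6a2, the obligate partner of Col6a1, had 0.47 and 0.52, then 0.22 and 0.38, a mean of 0.40. Arrays of the 2 dyes overlapped for Col6a1 and Col6a4, and all 3 genes also passed with the replicate block, where 16.3% of all features rose. Col6a1 and Col6a2 are adjacent genes. The window of Col6a4 (chr9:106096642-106096941, minus strand), the second largest increase, is shown with the same motifs in capitals.
Col6a4: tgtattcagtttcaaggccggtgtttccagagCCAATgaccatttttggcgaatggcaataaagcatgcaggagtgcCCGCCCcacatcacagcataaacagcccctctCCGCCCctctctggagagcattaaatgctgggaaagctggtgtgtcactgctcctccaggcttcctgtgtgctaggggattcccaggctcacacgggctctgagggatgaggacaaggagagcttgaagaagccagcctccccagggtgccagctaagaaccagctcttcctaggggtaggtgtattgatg
It held 2 GC boxes and 1 CCAAT.

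Multiplexins are basement membrane collagens that carry glycan chains. Col18a1, the source of the fragment endostatin and a component of the ureteric basement membrane, had 0.32 and 0.26 with AngII in Cy5 and 0.69 and 0.69 with AngII in Cy3, a mean of 0.49 or 1.40-fold. A further probe of Col18a1, also bright, had -0.07 and was negative on all 4 arrays, so the rise was seen at 1 probe. Col15a1, a basement membrane zone collagen, had 0.05 (-0.09 to 0.25) and did not pass.

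Of 5 tested FACIT collagens 2 rose and 1 fell (median 0.05), or 0 and 1 with the replicate block, where 39.1% and 38.1% of all features rose and fell, or 16.3% and 14.6% with the block. Col9a3, a chain of type IX collagen on cartilage fibrils, had -0.44 and -0.30, then -0.63 and -0.66, a mean of -0.51. Col9a2 rose by 0.21 (0.12 to 0.27, adjusted p = 0.0691 with the block), and Col9a1 had -0.08 (-0.28 to 0.15) and did not pass, so of the type IX chains only Col9a3 passed with the block. Col16a1 had -0.04 and 0.16 with AngII in Cy5 and 0.77 and 0.65 with AngII in Cy3. Its mean of 0.38 passed limma but not the replicate block (adjusted p = 0.149). Col14a1, a collagen found on type I fibrils, had -0.31 and -0.21, then 0.41 and 0.33, a mean of 0.05 that did not pass. For both genes the values of the dyes did not overlap.

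Transmembrane collagens had small positive ratios. Col13a1, a collagen of cell adhesion sites, had 0.34 and 0.31, then 0.16 and 0.21, and rose by a mean of 0.26. Col25a1 rose by 0.16 (0.07 to 0.30, adjusted p = 0.152 with the block), and Col23a1 had 0.04 (-0.09 to 0.25) and did not pass. The short-chain collagens Col8a1 and Col8a2, which form hexagonal networks in the cornea, rose by 0.08 and 0.09, the smallest increases that passed among the collagens, and the replicate block left neither passing (adjusted p = 0.412 and 0.344). Col26a1 fell on every array, with -0.35 and -0.39, then -0.28 and -0.29, a mean of -0.33. Col7a1, the anchoring fibril collagen of stratified epithelium, had -0.06 (-0.24 to 0.13) and did not pass.

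**Figure D4:**
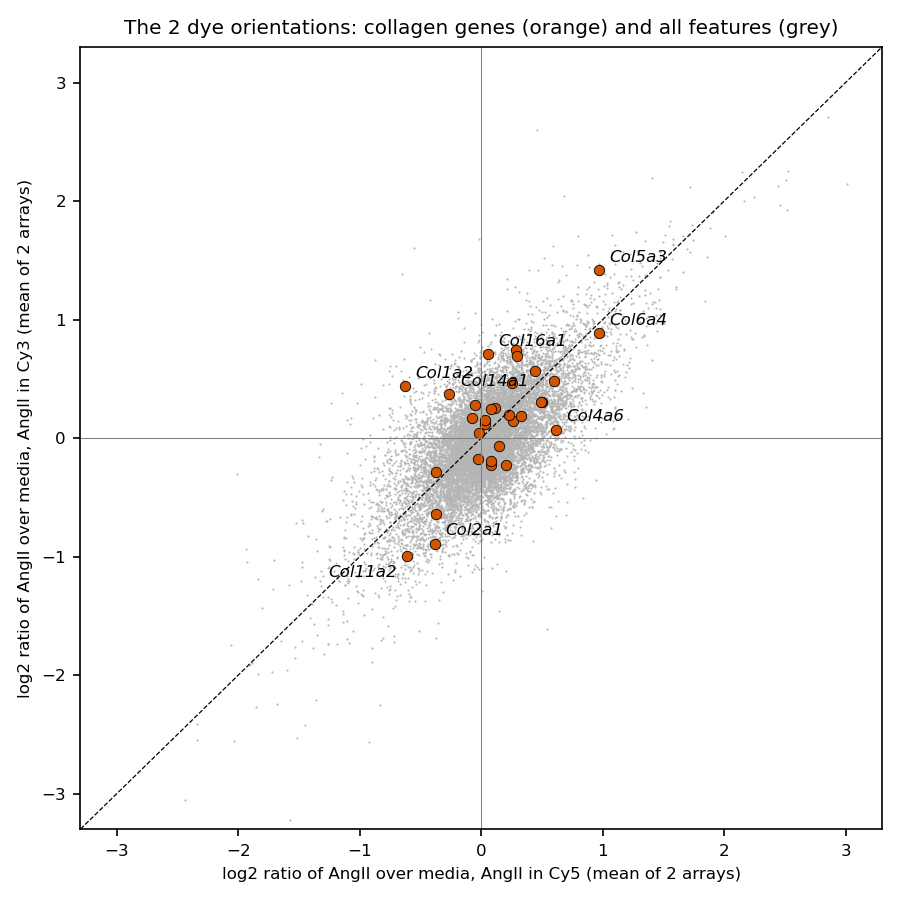
Mean log2 ratio of AngII over media with AngII in Cy5 (horizontal axis) against that with AngII in Cy3 (vertical axis), each over 2 arrays, for the 32 collagen genes (orange) and all features (grey). On the dashed line the orientations are equal. Col1a2 lies far from it, at -0.63 and 0.44, while Col6a4 lies close to it, at 0.97 and 0.88.

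The sign of the ratio turned between the dye orientations in 9 of 32 collagen genes (28.1%), a share near the 30.9% of all features. The median gap between orientations was 0.21 for the collagen genes and 0.20 over all features. Medians of the collagen genes were 0.10 with AngII in Cy5 and 0.19 with AngII in Cy3, against 0.04 and -0.03 over all features. The 7 collagen genes with a mean log2 intensity under 7 had a median size of 0.09, against 0.34 for the 25 brighter ones, and over all features these sizes were 0.11 and 0.24. With processed signals the sizes were 0.28 and 0.40 for the collagen genes, in the same order. Over all features they were 0.38 and 0.29, so that there the order turned. Col9a3 was among the 7 at -0.51, and Col11a2, Col5a3 and Col6a4 were little brighter, with intensities of 7.02, 7.31 and 7.69.

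Neighbouring collagen genes gave mixed pairs. Col6a1 and Col6a2 both rose, as did Col4a1 and Col4a2 at their brightest probes, and Col3a1 at 0.11 and Col5a2 at -0.10, next to each other on chromosome 1, had opposite signs.

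Of 21 listed genes that make and fold collagen, P4ha3 and Colgalt2 were not tested. Of the 19 tested 9 rose and 6 fell (median 0.05), or 3 and 2 with the replicate block. These are 47.4% and 31.6%, near the shares of all features (39.1% and 38.1%), and with the block 15.8% rose, where 16.3% of all features did. Fkbp14, a prolyl isomerase of the endoplasmic reticulum, had ratios of 0.60, 0.53, 0.62 and 0.66 and a mean of 0.60, with 0.24 at another probe. P4ha1, a catalytic subunit of the prolyl 4-hydroxylase that stabilises the helix, rose by 0.54 (0.46 to 0.65), with 0.28 at another probe. Plod1, a lysyl hydroxylase that prepares crosslinks, fell by 0.49 (-0.75 to -0.30). In these genes every array had the sign of the mean. Counts here used the brightest probe of each gene, and other probes could differ. Sparc did not pass at 0.05 but had 0.82 at a dimmer tested probe. Plod3 fell by 0.34, with -0.79 at a dimmer tested probe.

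Of 18 listed genes of procollagen processing, crosslinking and fibril assembly, Tll1, Tll2, Adamts3, Pcolce2, Lox, Loxl3, Loxl4, Pxdn and Fmod were not tested. Of the 9 tested 2 rose and 2 fell, around a median of 0.01, while 5 did not pass. With the replicate block 1 rose and 1 fell. All features rose in 39.1% and fell in 38.1%, while these genes did so in 22.2% each. Adamts2, which removes the N-propeptide of fibrillar procollagens, had 0.49, 0.63, 0.81 and 0.76, a mean of 0.67. Loxl2, a lysyl oxidase-like enzyme that crosslinks collagen, had -0.53, -0.55, -0.69 and -0.76, a mean of -0.63. Bmp1, the C-proteinase, had -0.04 and 0.03 with AngII in Cy5 and -0.60 and -0.73 with AngII in Cy3. Its mean of -0.34 did not pass with the replicate block (adjusted p = 0.189).

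Of 11 listed collagen receptors and uptake genes, Itga2, Itga10, Ddr1, Lair1 and Gp6 were not tested. Of the 6 tested 5 rose and 1 fell, with a median of 0.28, or 2 and 1 with the replicate block. Those shares are 83.3% and 16.7%, against 39.1% and 38.1% of all features, and 33.3% and 16.7% with the block, against 16.3% and 14.6%. Itga11, the integrin chain that binds fibrillar collagen, had 1.00, 0.99, 0.92 and 0.94, a mean of 0.96. Adgrg1, an adhesion G protein-coupled receptor that binds type III collagen, rose by 0.51 (0.47 to 0.57). Mrc2, an endocytic receptor that takes up collagen, fell by 0.58 (-0.73 to -0.44). Each of these genes had arrays on 1 side of 0. The dye orientations of Mrc2 did not overlap, with a gap of 0.25. With processed signals Itga11 had 1.503, Adgrg1 1.21 and Adamts2 1.02.

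**Figure D5:**
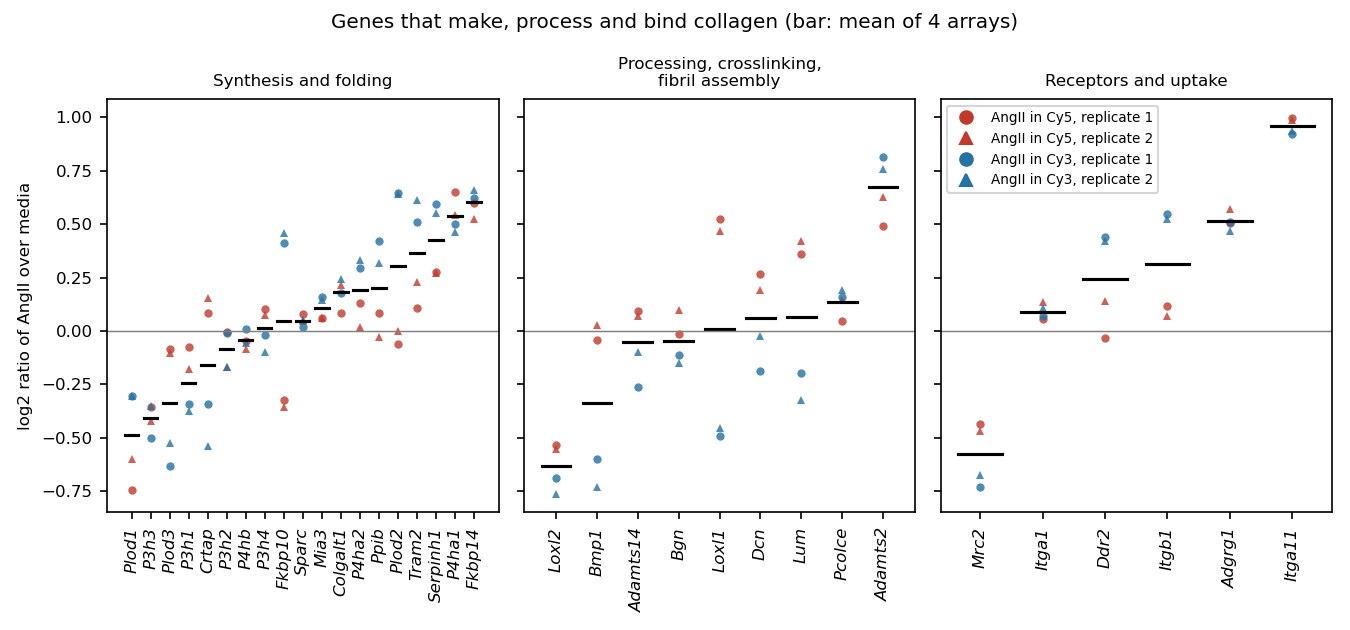
Log2 ratio of AngII over media (vertical axis) of the tested genes that make and fold (left), process and assemble (middle) and bind or take up collagen (right). Marks are as in the plot of collagen genes by array, and the bar is the mean of 4 arrays. Itga11 and Adamts2 are the highest of the right and middle panels at 0.96 and 0.67.

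Endothelial markers rose in 2 of 9 and fell in 6, with a median of -0.10, and ureteric epithelial markers rose in 6 of 13 and fell in 6, with a median of -0.03. Nephron progenitor markers rose in 3 of 7 and fell in 4, with a median of -0.37. With the replicate block 2 endothelial markers rose and 1 fell, 4 epithelial rose and 3 fell, and 1 progenitor marker rose and 3 fell. The shares that rose and fell were 22.2% and 66.7% (endothelial), 46.2% and 46.2% (epithelial) and 42.9% and 57.1% (progenitor), beside 39.1% and 38.1% of all features. With the block they were 22.2% and 11.1%, 30.8% and 23.1%, and 14.3% and 42.9%, beside 16.3% and 14.6%. Summed intensities ran from 2593 to 2813 (AngII) and 2565 to 2850 (media) for endothelial, 261267 to 287909 and 280376 to 350234 for epithelial, and 5154 to 5991 and 5182 to 5671 for progenitor markers. The sum over the collagen genes ran from 75512 to 94811 in the AngII channels and from 67491 to 77333 in the media channels, ranges that overlap. Bright genes weigh most in these sums. Among epithelial markers these were Krt18 and Krt8, at mean log2 intensities of 17.0 and 16.6, and among collagens Col18a1, at 15.0. The part of endothelial, epithelial and progenitor cells in the collagen ratios was not tested.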

How the data were processed

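RNA of AngII-treated and media-treated ureteric buds was read on 4 two-colour arrays. Intensity values deposited for each spot were its uncorrected median pixel intensity, that of its local background, and processed intensities, background-subtracted and dye-normalised by Feature Extraction 10.5.1.1, with flags of 0 or 1, per the file headers. A table deposited by the authors holds log2 ratios, average log2 intensities, p-values after adjustment and calls coded as a score of -1, 0 or 1. The submitters' processing notes name limma, with no version. Its ratios and those computed here correlated at r = 0.995 across 14995 features.

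In R 4.3.3 with limma 3.58.1, median signals were corrected by normexp (offset 50) and normalised by loess within arrays, with control spots at weight 0 and outlier-flagged spots left out. Repeated spots were averaged per probe and ratios turned where Cy3 held AngII. The 2 arrays of each replicate number were then averaged, and both ratios tested against 0 with lmFit and eBayes (Benjamini-Hochberg adjusted p under 0.05, over all features). Pairing comes from the arrays, which each hold AngII and media RNA of 1 number, and the replicates' deviations correlated at 0.834 between AngII and media channels, which share spots. The labels speak of biological replicates, with no word on animals or cultures.

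A probe was kept if well above background in the AngII or the media channel of all 4 arrays (19393 of 41174) and if it had a value on all 4. The brightest stood for its gene. Matching unversioned accessions to RefSeq (GRCm38.p6) named 25097 probes, and the array's own annotation is of another build. Summed intensities used Aquantile after loess. The fit was tested on simulated data. Every tested collagen gene was named. From the lists of synthesis, processing and receptor genes the 3 largest ratios that passed were named, and, after their values were seen, the stromal markers that passed. The members and lists were chosen with earlier results of these data known. Alternatives are in the closing section.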

Additional observations from a re-analysis of the deposited data

Results flagged for a closer look

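Col5a2, at a mean log2 ratio of -0.10, had 1 array of 4 far from the others. That array, with AngII in Cy5 and replicate 2, had 0.09, and the other 3 lay between -0.18 and -0.15. Without replicate 2 the ratio was -0.17, and without replicate 1 it was -0.04. All 32 collagen genes were checked in this way and 1 stood out, where chance alone gives about 1 in 20.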

How the results depend on the processing

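The 32 collagen genes had 352 values under 11 alternatives with a test, of which 1 (dye orientation as a fixed effect) was chosen after seeing the data. Of these 299 kept their direction and their side of the threshold, 32 lost and 8 gained a call, and 13 changed sign. Leaving out a replicate left 1 ratio and no residual degree of freedom, so no test, and 63 of those 64 values kept their sign. The count of genes that rose, 19, was 10 with the replicate block, where 11 collagen calls were lost and 16.3% of all features rose. Without the filter on dim probes it was 17 of 39, where 18.6% of all features rose. Under the other alternatives with a test it was 15 to 21, where 35.6% to 39.8% of all features rose. The count of genes that fell, 6, ran from 4 with the block (14.6% of all features) to 8 with AngII in Cy3 (40%). Without the filter it was 7 of 39, beside 17.9% of all features. At least 1.5-fold higher were 2 genes, where 5.5% of all features were. With processed signals it was 6 (12.1% of all features), with the mean of probes 1 (4.84%) and with median centring 3 (6.44%). With AngII in Cy5 it was 4 (7.26%), with AngII in Cy3 5 (6.52%), and without a replicate 2 to 3 (5.56%). At least 1.5-fold lower were 2 genes (5.4%), against 1 with median centring (4.67%) and 1 with the mean of probes (4.86%). It was 3 with processed signals (11.4%), without background correction (6.3%), with AngII in Cy3 (8.27%) and in the authors' deposited table (6.34%). The median of 0.14 was 0.24 with processed signals, 0.0758 with the mean of probes, 0.0757 without the filter on dim probes, 0.19 with AngII in Cy3 and 0.12 to 0.19 without a replicate. Signs changed for Col14a1 (-0.0078) with processed signals and Col4a2 (-0.012) with the mean of probes. With median centring they changed for Col11a1 (0.035) and Col14a1 (-0.011), with AngII in Cy3 for Col1a2 (0.44) and Col23a1 (-0.067), and without replicate 1 for Col23a1 (-0.022, and 0.10 without replicate 2). With AngII in Cy5 they changed for Col11a1 (0.20), Col14a1 (-0.26), Col15a1 (-0.074), Col3a1 (-0.054), Col4a4 (-0.022), Col7a1 (0.079) and Col9a1 (0.080). Of the 13 sign changes with a test, 7 came with AngII in Cy5 and 2 with AngII in Cy3. Bright genes were among them, such as Col1a2 and Col3a1 at mean log2 intensities of 13.8 and 12.6. So were dim ones, such as Col14a1 and Col15a1 at 6.51 and 6.41. The cause of the sign changes was not tested. For all values here dim probes limit precision, as does the number of arrays.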
